A study of Mus musculus with 14 samples.

Results

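The response of Etv4/Etv5 knockdown cells to TGF-β was read from 4 of the 14 RNA-seq libraries of the study, which were chosen by their labels. EpRas cells, an H-Ras-transformed derivative of the EpH4 mouse mammary gland epithelial line, were transfected with siEtv4_1 and siEtv5_1 (pair 1) or with siEtv4_2 and siEtv5_2 (pair 2). Each transfected culture was given 1 ng/ml TGF-β3 for 48 h or left untreated, with 1 library for each of these 4 conditions. EpRas cells transfected with the control siRNA siNC gave 1 untreated library and 1 library with TGF-β, and these 2 libraries served as the reference. Untransfected EpRas cells, 2 libraries untreated and 2 after 48 h of TGF-β, which were processed separately from the transfected cells, gave a measure of the response that shares no sample with the siRNA libraries. All of these cells carry the activated Ras, and all of the siRNA libraries come from transfected cells. The comparison asks which TGF-β responses were kept, lost or gained when Etv4 and Etv5 were lowered. The siRNA pairs stand in for replicates, so the spread between them holds the difference between the siRNAs as well as any difference between cultures, and the sources used here do not say whether the libraries of a pair came from separate experiments. The siNC response has 1 library on each side and no replicate check.

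Etv4 and Etv5 are closely related transcription factors of the ETS family, which bind DNA at a GGAA core and are activated downstream of Ras and ERK. TGF-β signals through serine/threonine kinase receptors that phosphorylate Smad2 and Smad3, which enter the nucleus with Smad4 and act on chromatin together with factors such as AP-1, ETS and RUNX proteins. In Ras-transformed mammary epithelial cells, TGF-β is known for epithelial-mesenchymal transition (EMT), in which cells produce matrix, matrix-degrading enzymes and actin-binding proteins.

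One of the 4 siRNAs is printed in the labels, and it is shown here because it fixes where the knockdown acts on the Etv5 transcript.
siEtv5_2: uuaaauuccaugccucggccagucc
These 25 bases matched the antisense strand of the Etv5 transcript Etv5-201 at bases 1447 to 1471, within the coding sequence of exon 11, at chr16:22392674-22392698 (mm10, GENCODE annotation). Without TGF-β, Etv5 stood at 8.85 FPKM in siNC cells, 1.61 FPKM in pair 1 and 1.26 FPKM in pair 2. With TGF-β it stood at 5.34, 1.24 and 1.20 FPKM, so that the knockdown cells kept 23.2% (pair 1) and 22.5% (pair 2) of the siNC level. FPKM are sequenced fragments scaled to the length of the transcript and to the depth of the library. For Etv4, the siNC libraries held 57.4 FPKM untreated and 64.3 FPKM with TGF-β. Pair 1 held 11.6 and 12.6 FPKM, which was 20.2% and 19.6% of siNC. Pair 2 held 27.9 FPKM untreated and 18.9 FPKM with TGF-β, which was 48.5% and 29.4% of siNC. Both genes were thus lower than in siNC in all 4 knockdown libraries, and Etv4 in untreated cells of pair 2 was the least reduced. The change of Etv4 by TGF-β in the knockdown cells was -0.21 ± 0.21 on the log2 scale (SE, 2 pairs, adjusted p = 0.60) and that of Etv5 -0.13 ± 0.16 (adjusted p = 0.68).

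The relative depth of the siRNA libraries, read from the smallest steps of the FPKM values, ranged from 1.00 (siNC untreated) to 1.74 (siNC with TGF-β), and the 4 knockdown libraries lay between 1.24 and 1.38. A level of 5 FPKM corresponded to a median of 83.9 to 146 reads in genes whose steps could be resolved. Of 10 epithelial markers, 9 were at or above 5 FPKM in every siRNA library and Krt5, a basal keratin, was at or near 0. Markers of endothelial cells and adipocytes summed to at most 2.01 FPKM in any library. Fibroblast markers summed to 5.50 FPKM (untreated) and 11.7 FPKM (TGF-β) in siNC, 25.7 and 43.9 FPKM in pair 1 and 16.6 and 22.4 FPKM in pair 2, with Col1a1 and Pdgfrb giving most of the sums in the pairs and Pdgfra (3.21 and 6.79 FPKM) most of those in siNC, while Lum and Thy1 were listed at 0 in all 6 libraries. Leukocyte markers summed to 6.48 FPKM (untreated) and 11.5 FPKM (TGF-β) in siNC and to 3.31 to 6.99 FPKM in the pairs, nearly all from Cd68 and Csf1r, while Cd3e was listed at 0 in all 6 libraries.

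Matrix, protease and growth factor genes stood among the genes that TGF-β changed in the knockdown cells. In a paired limma test on log2(FPKM + 1), with the siRNA pair as a block, 302 of 9094 genes rose (3.32% of the genes tested) and 224 fell (2.46%) at an adjusted p below 0.05, and all 526 moved in the same direction in both pairs. At least 2-fold changes in both pairs were seen for 204 of the called rises and 151 of the called falls. The test rests on the pairing. Without the block 33 genes rose and 20 fell, all of them among the 526, and without a filter on low values no gene (0) passed limma, against 2135 of 9094 genes with an unadjusted p below 0.05 in the paired test. When 97 microRNA, small nucleolar and other short RNA genes, whose FPKM varied widely between the pairs, were left out (a step added after seeing the data), 752 genes rose (8.36%) and 618 fell (6.87%).

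Short RNA genes aside, the 10 largest rises included Mmp9, Lce1f, Acta1, Hsd11b2, Clu, Ctsw, Tnc, Acta2 and Adamts4. Mmp9, the gelatinase of the matrix metalloproteinase family, increased from 4.05 to 250 FPKM in pair 1 and from 11.9 to 309 FPKM in pair 2, beside 10.7 to 319 FPKM in siNC. Its log2 change in the knockdown cells was 5.11 ± 0.28 (SE, adjusted p = 0.0062). Clu, which encodes the secreted chaperone clusterin, rose from 46.3 to 542 FPKM in pair 1 and from 52.6 to 1004 FPKM in pair 2, beside 37.4 to 587 FPKM in siNC. Hsd11b2, which inactivates glucocorticoids, rose from 1.14 to 20.7 FPKM and from 1.09 to 44.3 FPKM, beside 0.572 to 26.1 FPKM. For these 3 genes the treated libraries stood far above the untreated ones with every siRNA, and 24% of all genes had both treated knockdown libraries above both untreated ones.

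Tnc, Lce1f and Adamts4 were among the 10 largest rises too, short RNA genes aside. Tnc, the matrix glycoprotein tenascin-C, rose from 36.5 to 428 FPKM in pair 1 and from 27.5 to 281 FPKM in pair 2 (log2 change 3.41 ± 0.16, SE, adjusted p = 0.0054), beside 59.8 to 255 FPKM in siNC. The knockdown cells started lower than siNC and ended higher. Adamts4, an aggrecan-cleaving protease, rose from 1.51 to 28.6 FPKM and from 1.10 to 15.6 FPKM, beside 0.814 to 3.97 FPKM in siNC. Lce1f, a late cornified envelope gene, rose from 0.192 to 29.9 FPKM and from 0.410 to 43.3 FPKM, whereas siNC went from 6.53 to 151 FPKM. All knockdown levels of Lce1f were thus below siNC at the same treatment, with the log2 change (4.83 ± 0.17, SE) above that of siNC (4.33).

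Short RNA genes aside, the falls were led by Aldh3a1, an aldehyde dehydrogenase, which dropped from 60.7 to 0.280 FPKM in pair 1 and from 51.3 to 1.09 FPKM in pair 2 (log2 change -5.12 ± 0.26, SE, adjusted p = 0.0054). In siNC it dropped from 49.1 to 6.95 FPKM, so that the 3 libraries were alike without TGF-β and the knockdown libraries were the lower ones with it. Bmp4, a ligand of the BMP branch, fell from 15.4 to 0.708 FPKM and from 9.62 to 0.850 FPKM, beside 14.6 to 3.06 FPKM in siNC. Ppl, which encodes the desmosomal plakin periplakin, fell from 17.8 to 2.52 FPKM and from 26.0 to 1.42 FPKM, beside 29.5 to 9.38 FPKM. Slurp1, a secreted keratinocyte protein, was listed at 0 with TGF-β in all 3 and at 3.67, 10.8 and 19.6 FPKM without it (pair 1, pair 2, siNC). Aqp1, a water channel, Cp, the ferroxidase ceruloplasmin, and Mgp, an inhibitor of matrix calcification, also fell with log2 changes of -2.59, -2.73 and -3.22. These 3 genes shared a feature, since their untreated levels in the knockdown cells (13.7 to 22.7 FPKM) were above those of siNC (1.00 to 5.31 FPKM). Untreated untransfected EpRas cells held 12.5 and 14.4 FPKM of Aqp1, 54.8 and 44.2 FPKM of Mgp and 4.47 and 5.47 FPKM of Cp. For Aqp1 and Mgp the siNC library was thus the low one, and for Cp the untransfected cells were near siNC.

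**Figure D1:**
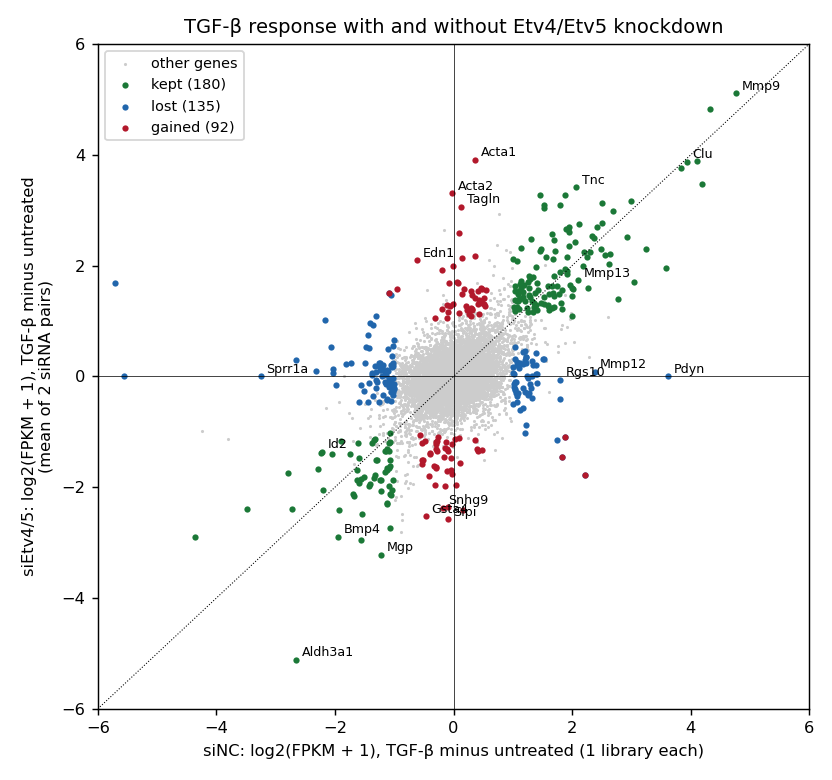
Each point is a gene, with the log2(FPKM + 1) difference between TGF-β and untreated cells in siNC on the horizontal axis (1 library each) and the mean of the 2 siRNA pairs on the vertical axis, short RNA genes left out. Kept responses lie along the dotted line of equal change, gained ones along the vertical axis with Acta1, Acta2 and Tagln at the top and Slpi and Gsta4 at the bottom, and lost ones along the horizontal axis.

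The knockdown response was then set beside that of siNC gene by gene. Of the genes tested, 294 rose at least 2-fold in siNC (3.23%) and 228 fell (2.51%), while 210 rose (2.31%) and 155 fell (1.7%) at least 2-fold in both pairs. Taken singly, pair 1 had 334 rises (3.67%) and 296 falls (3.25%) of that size and pair 2 had 371 (4.08%) and 292 (3.21%). A response was called kept when it was at least 2-fold in the same direction in siNC and in both pairs, lost when it was 2-fold in siNC and under 1.5-fold in that direction in both pairs, and gained when it was 2-fold in both pairs and under 1.5-fold in siNC. By this rule 122 rises were kept (1.34% of all genes), 74 were lost (0.814%) and 49 were gained (0.539%). Among the falls, 61 were kept (0.671%), 93 were lost (1.02%) and 55 were gained (0.605%). Short RNA genes made up 16 of the lost rises, 16 of the lost falls, 3 of the gained rises and 9 of the gained falls, against 1 of the kept rises and 2 of the kept falls. Lost genes were selected on 1 library per side and gained genes on 2 pairs, so the numbers of lost and gained genes cannot be compared directly. Without short RNA genes, 229 of the 273 genes that rose at least 2-fold in siNC moved upward in both pairs, and 135 of the 201 that fell moved downward in both.

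Across all genes tested, the correlation of the log2 changes was 0.485 between the siRNA pairs, 0.305 between pair 1 and siNC and 0.280 between pair 2 and siNC. These are correlations across genes, which are not independent replicates, and libraries of a pair share their siRNAs. The SD of the log2 changes over all genes was 0.661 in siNC, 0.718 in pair 1 and 0.705 in pair 2.

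The untransfected EpRas cells gave a measure of these groups that did not enter the rule. In them 173 of 9100 genes rose (1.9%) and 175 fell (1.92%) with TGF-β by limma, in a fit over all 8 untransfected libraries, 4 of which are of EpH4 cells without the activated Ras and share only the estimate of the spread. Of the 165 risen genes that were tested in the siRNA libraries, 127 also rose in the paired test of the knockdown cells and 109 were at least 2-fold up in both pairs, while 97 were at least 2-fold up in siNC. The median log2 change of the 165 risen genes was 1.38 in pair 1 and 1.5 in pair 2, beside 1.12 in siNC and 1.36 in the untransfected cells. Of the 162 fallen genes, 99 also fell in the paired test, 1 rose, 75 were at least 2-fold down in both pairs and 49 were at least 2-fold down in siNC. Their median log2 change was -1.09 in pair 1, -1.15 in pair 2, -0.75 in siNC and -1.26 in the untransfected cells. When only the 4 EpRas libraries were fitted, fewer genes were called, and 25 of the rises and 12 of the falls were at least 2-fold in both pairs. The mean of the pairs lay beyond siNC in the direction of the untransfected response for 105 of the 165 risen genes and 119 of the 162 fallen genes. Over all genes tested, the mean of the pairs was above siNC for 4696 of 9094. In the test of the difference between knockdown and siNC cells (limma interaction), 0 of the risen and 1 of the fallen genes passed, beside 0.297% of all genes tested. An unadjusted p below 0.05 was seen for 37 and 49 of them, beside 944 of 9094 genes tested. With short RNA genes left out, 8 and 12 passed, beside 1.17% of all genes.

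**Figure D2:**
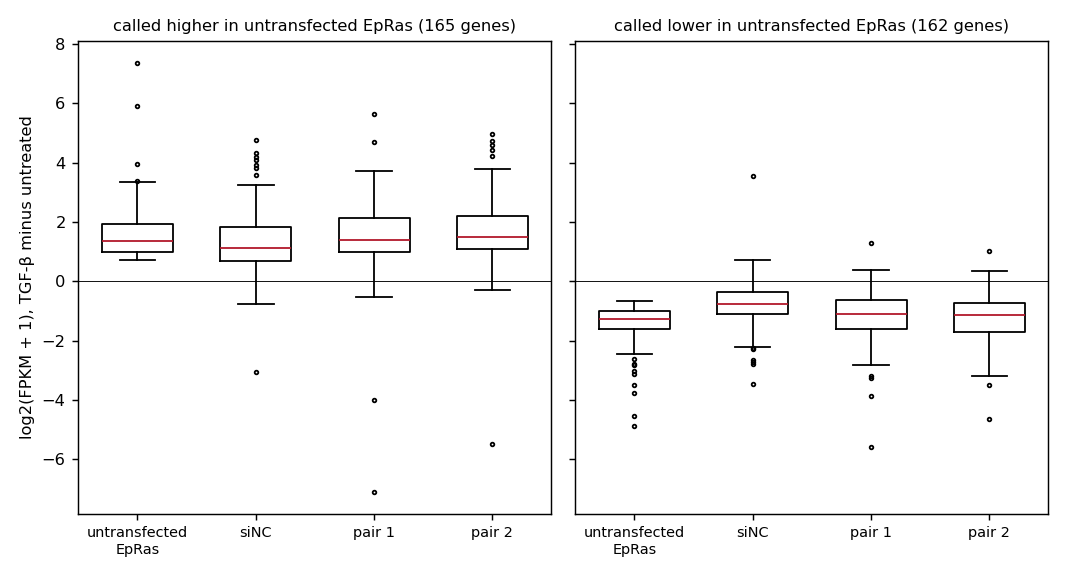
Box plots of the log2(FPKM + 1) difference between TGF-β and untreated cells for the genes called higher (left, 165 genes) and lower (right, 162 genes) in untransfected EpRas cells, in those cells, in siNC and in each siRNA pair. Boxes span the quartiles, red lines are medians and whiskers reach 1.5 times the box; the medians of both siRNA pairs lie farther from 0 than that of siNC on either side.

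Nearly all kept responses had the same direction in the untransfected cells. Among 117 kept rises measured there, 116 rose and the median log2 change was 1.31. Among 48 kept falls, all 48 fell, with a median of -1.52. For the gained rises the median was 0.62, and 35 of 42 rose, 12 of them at least 2-fold. For the gained falls it was -0.92, and 35 of 38 fell, 18 of them at least 2-fold. The lost groups lay closest to 0, with a median of 0.11 for 50 lost rises, of which 2 rose at least 2-fold, and -0.34 for 65 lost falls, of which 4 fell at least 2-fold. The direction was still shared by 33 of the 50 lost rises and 52 of the 65 lost falls. Part of what was counted as gained was thus seen in untransfected EpRas cells and small in the siNC libraries, and most of what was counted as lost was small in the untransfected cells. These counts leave out short RNA genes.

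**Figure D3:**
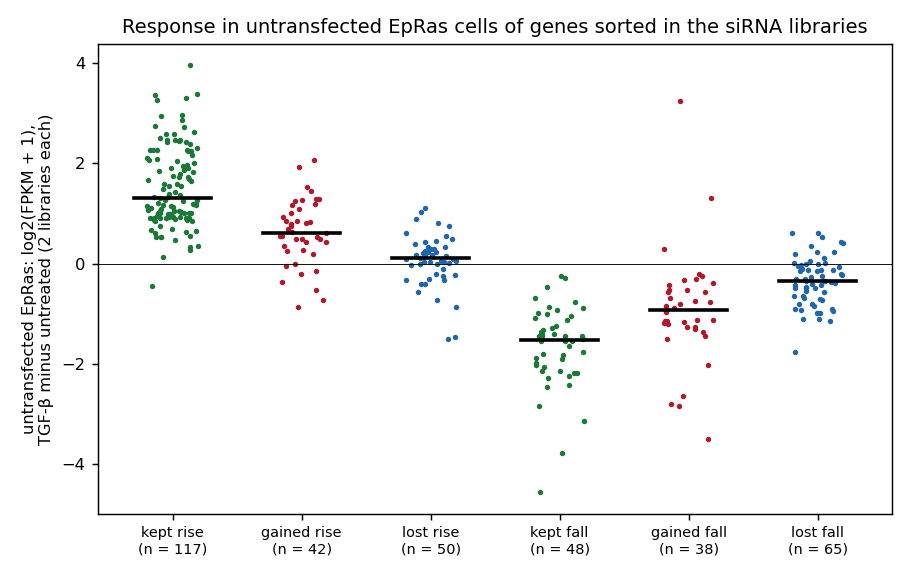
Log2(FPKM + 1) difference between TGF-β and untreated cells in untransfected EpRas cells (mean of 2 libraries each) for genes sorted as kept, gained or lost in the siRNA libraries, short RNA genes left out, with black lines at the medians. Kept genes lie farthest from 0, gained genes between, and lost genes around medians of 0.11 and -0.34.

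The gained rises were led by smooth muscle and contractile genes. Acta2, which encodes smooth muscle α-actin, stood at 0.512 FPKM untreated and 0.490 FPKM with TGF-β in siNC. It rose from 23.4 to 202 FPKM in pair 1 and from 0.201 to 13.2 FPKM in pair 2, so that the change was shared while the levels of the pairs differed at both treatments. Its log2 change in the knockdown cells was 3.31 ± 0.19 (SE, adjusted p = 0.0062; 0.51 without the block). In untransfected EpRas cells Acta2 lay between 1.24 and 2.26 FPKM in all 4 libraries. Tagln, which encodes the actin-binding protein transgelin, rose from 3.94 to 47.9 FPKM and from 0.459 to 9.28 FPKM, beside 0.681 and 0.838 FPKM in siNC. Acta1, skeletal muscle α-actin, rose from 7.16 to 68.3 FPKM and from 0.516 to 39.4 FPKM, beside 0.656 and 1.13 FPKM in siNC. In untransfected cells Acta1 rose too, from 0.454 and 0.732 FPKM to 4.03 and 6.22 FPKM (log2 change 1.92, limma adjusted p = 0.0045). Actg2, smooth muscle γ-actin, rose from 13.2 to 55.8 FPKM and from 0.190 to 9.78 FPKM, beside 0 and 0.0695 FPKM. The coding sequences of the actin genes are nearly identical, so reads could be split between them and their separate values are uncertain. Fibroblast markers, whose sums are given above, were also highest in pair 1, and their part in these values was not tested.

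The difference between the knockdown and siNC responses was tested with limma on all 6 libraries, in which siNC is assumed to vary as the siRNA pairs do. With all genes, 27 differences passed (0.297% of the genes tested), 21 of them in short RNA genes, and 944 had an unadjusted p below 0.05. With short RNA genes left out, 105 passed (1.17%), 53 with a higher (0.589%) and 52 with a lower change (0.578%) in the knockdown cells. Acta2, Tagln, Acta1 and Actg2 did not exceed 1.13 FPKM in siNC and entered this test only through the knockdown libraries, so their differences from siNC (3.33, 2.93, 3.55 and 2.49 on the log2 scale) are given as values with no test. Of the 27 named genes with a difference past either fit, 11 met the minimum of 5 FPKM only in knockdown libraries, 4 only in siNC and 12 in both.

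Other genes of the contractile list moved the same way at far higher levels. Of 19 members tested, 7 rose and none (0) fell, beside 3.32% and 2.46% of all genes tested, and all 19 were up in both pairs (34.8% of all genes), with 17 higher at an unadjusted p below 0.05 (12.6% of all genes). The median log2 change was 0.92 in pair 1 and 0.91 in pair 2, beside 0.22 in siNC and medians of 0.00 to 0.02 over all genes tested. Csrp1, a LIM protein of the actin cytoskeleton, rose from 184 to 440 FPKM and from 64.4 to 194 FPKM, beside 74.7 to 95.7 FPKM in siNC. Tpm2, a tropomyosin, rose from 217 to 481 FPKM and from 99.0 to 249 FPKM, beside 172 to 210 FPKM. Tpm4, another tropomyosin, and Zyx, the focal adhesion protein zyxin, rose with log2 changes of 0.96 and 1.00, beside 0.21 and 0.47 in siNC. Pdlim7 and Cnn3 were members with a siNC change near that of the pairs (1.18 against 1.37 and 0.81 against 0.62 on the log2 scale), and neither passed the paired test. In the test of the difference from siNC no member (0) passed with all genes. An unadjusted p below 0.05 in that test was seen for 8 of 19, beside 944 of 9094 genes tested. Of these 8, Acta2, Tagln and Actg2 met the minimum only in knockdown libraries.

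Among growth factors, Edn1 and Wnt5a rose in the knockdown cells and were lower with TGF-β in siNC. Edn1, the vasoactive peptide endothelin-1, rose from 2.50 to 15.1 FPKM in pair 1 and from 0.346 to 4.32 FPKM in pair 2 (log2 change 2.09 ± 0.16, SE), whereas siNC went from 2.01 to 0.975 FPKM. Wnt5a, a non-canonical Wnt ligand, went from 2.10 to 5.03 FPKM and from 3.59 to 8.70 FPKM, beside 2.43 to 1.77 FPKM in siNC. Glipr1, which encodes a secreted or membrane-bound CAP-family protein, rose from 8.40 to 26.3 FPKM and from 4.69 to 14.9 FPKM, beside 9.12 to 3.78 FPKM. Of these, Glipr1 reached 5 FPKM in both kinds of cells, and its difference of 2.59 passed without short RNA genes (adjusted p = 0.00084) and not with all genes (adjusted p = 0.065). Edn1 met the minimum only in the TGF-β-treated library of pair 1. Its change and its difference from siNC (2.70) are therefore given as values with no test.

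**Figure D4:**
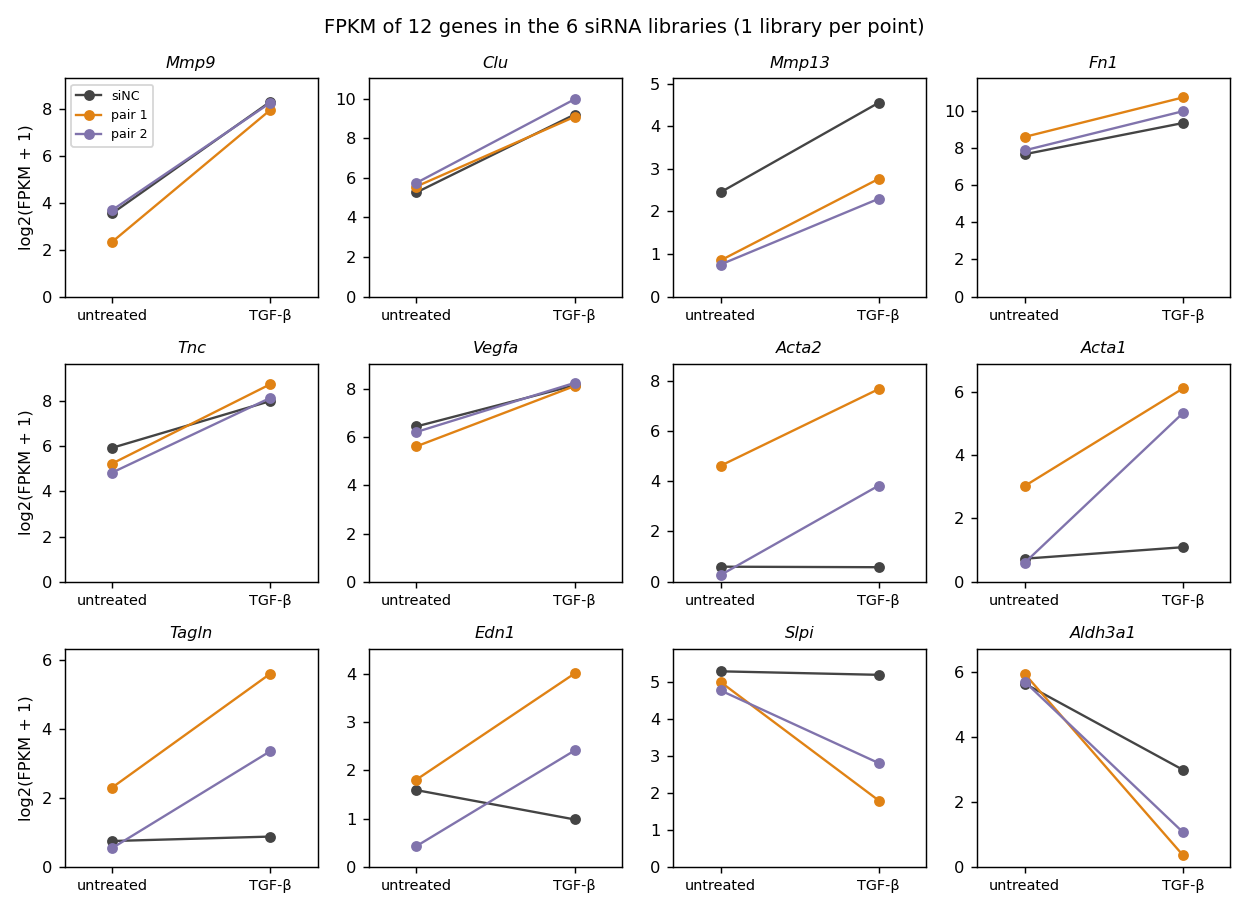
Level of 12 genes as log2(FPKM + 1) in the 6 siRNA libraries, untreated on the left and with TGF-β on the right of each panel, with siNC in grey, pair 1 in orange and pair 2 in purple (1 library per point). The lines of Mmp9, Clu, Mmp13, Fn1 and Vegfa run in the same direction with every siRNA, those of Acta2, Acta1, Tagln and Edn1 rise steeply in the pairs and little or not in siNC, and that of Slpi falls in the pairs while siNC stays level.

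The gained falls included secreted and detoxifying proteins. Slpi, the secretory leukocyte protease inhibitor, fell from 30.9 to 2.46 FPKM in pair 1 and from 26.2 to 5.97 FPKM in pair 2 (log2 change -2.58 ± 0.32, SE, adjusted p = 0.021), beside 37.9 and 35.4 FPKM in siNC. The untransfected EpRas cells also fell, from 25.3 and 22.7 FPKM to 3.53 and 1.89 FPKM, so that the siNC library with TGF-β was the one that stayed high. Gsta4, a glutathione S-transferase of lipid peroxide detoxification, fell from 57.8 to 9.29 FPKM and from 170 to 28.5 FPKM, beside 150 to 108 FPKM in siNC, and its log2 change in untransfected cells was -2.63. Inmt, a methyltransferase, was listed at 0 with TGF-β in both pairs and at 3.26 and 5.15 FPKM without it, beside 0.164 and 0.0942 FPKM in siNC, and it met the minimum of 5 FPKM only through untreated cells of pair 2, so no test is given for it. Snhg9, a small nucleolar RNA host gene, fell from 403 to 65.5 FPKM and from 345 to 77.9 FPKM, beside 78.2 and 69.2 FPKM in siNC. The Snhg9 levels with TGF-β were alike with every siRNA, and the untreated levels of the knockdown cells were higher. In untransfected EpRas cells Snhg9 measured 12.5 and 423 FPKM untreated, and TGF-β gave 124 and 68.5 FPKM, so its untreated level varied widely between libraries without any siRNA.

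Lost responses with a large difference from siNC are given next. Rgs10, which accelerates the GTPase activity of G protein α subunits, rose from 8.59 to 32.4 FPKM in siNC and stayed at 31.6 and 30.3 FPKM in pair 1 and at 23.7 and 22.6 FPKM in pair 2. Its untreated level in the knockdown cells was thus near the level siNC reached with TGF-β. Untransfected EpRas cells held 28.6 and 23.2 FPKM of Rgs10 untreated, and its log2 change in them was 0.12 (limma adjusted p = 0.91). Gmppa, an enzyme subunit of GDP-mannose synthesis, went from 70.3 to 239 FPKM in siNC, from 95.5 to 62.3 FPKM in pair 1 and from 239 to 73.9 FPKM in pair 2. Mmp12, the macrophage metalloelastase, rose from 0.435 to 6.47 FPKM in siNC and did not exceed 0.128 FPKM in any knockdown library. The siNC library in which it was high also had the highest sum of leukocyte markers, whose part in this value was not tested. Pdyn, the precursor of the dynorphin peptides, was listed at 11.3 FPKM in TGF-β-treated siNC cells and at 0 in the other 5 libraries, and Sprr1a, a cornified envelope precursor, at 18.5 and 1.05 FPKM in siNC and at 0 in all 4 knockdown libraries. In untransfected EpRas cells Pdyn was listed at 0 in all 4 libraries, Sprr1a did not exceed 0.255 FPKM and Mmp12 did not exceed 0.175 FPKM, so that siNC held the only libraries above 1 FPKM among those compared for these 3 genes. Gmppa had a log2 change of 0.11 in untransfected cells. Pdyn, Sprr1a and Mmp12 entered the test only through 1 siNC library, and their differences are given as values with no test. Insl3, a relaxin-family hormone, went from 0.514 to 4.56 FPKM in siNC, from 4.67 to 1.82 FPKM in pair 1 and from 17.6 to 7.26 FPKM in pair 2, and its difference of -2.97 is likewise given with no test, since siNC did not reach 5 FPKM. In untransfected cells Insl3 ranged from 6.88 to 18.9 FPKM without TGF-β and from 5.70 to 14.0 FPKM with it.

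Mmp13, the collagenase-3 of the metalloproteinase family kept its response at a lower level. It stood at 4.46 FPKM untreated and 22.5 FPKM with TGF-β in siNC, at 0.801 and 5.80 FPKM in pair 1 and at 0.684 and 3.92 FPKM in pair 2. The ratio of TGF-β to untreated cells was 5.04 in siNC, 7.24 in pair 1 and 5.72 in pair 2. The log2 change in the knockdown cells was 1.73 ± 0.18 (SE, adjusted p = 0.014) and the difference from siNC was -0.37 (adjusted p = 0.71), a difference on the log2(FPKM + 1) scale that is compressed at these low levels. All 4 knockdown libraries lay at or below the siNC library of the same treatment, and the treated knockdown libraries reached about the untreated siNC level. Mmp10, which encodes stromelysin-2, rose from 6.09 to 37.8 FPKM and from 7.42 to 29.2 FPKM, beside 16.2 to 80.6 FPKM in siNC. In total 6 of 11 metalloproteinase and inhibitor genes rose and none (0) fell, beside 3.32% and 2.46% of all genes tested, with Mmp14, a membrane-bound collagenase, and the inhibitors Timp1 and Timp3 among them. The median of the list was 1.29 in pair 1 and 1.01 in pair 2, beside 0.79 in siNC. The median difference from siNC over the members was 0.05, with 6 of 11 above 0, beside 4696 of 9094 genes tested.

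Direct targets and feedback genes of TGF-β had similar median changes with every siRNA. Of 14 tested, 7 rose and none (0) fell, beside 3.32% and 2.46% of all genes tested, with a median log2 change of 0.83 in pair 1, 0.75 in pair 2 and 0.77 in siNC. Smad7, the inhibitory Smad, rose from 8.16 to 19.7 FPKM and from 9.44 to 17.6 FPKM, beside 12.3 to 28.4 FPKM in siNC. Skil and Pmepa1, which restrain Smad signalling, rose with log2 changes of 1.27 and 1.09, beside 0.98 and 0.83 in siNC. Ctgf and Cyr61, matricellular proteins of the CCN family, rose with log2 changes of 2.99 and 1.67, beside 2.69 and 0.92. Among 14 ligands, receptors, Smads and latency proteins only Ltbp2, a latent TGF-β binding protein, passed the paired test, at a log2 change of 0.85 beside 0.74 in siNC.

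Of 8 EMT transcription factors tested, Snai1, the repressor of E-cadherin, passed. It rose from 14.9 to 47.9 FPKM in pair 1 and from 33.3 to 83.0 FPKM in pair 2, beside 9.14 to 39.4 FPKM in siNC. Cdh1, which encodes E-cadherin, went from 63.1 to 53.4 FPKM and from 48.3 to 39.5 FPKM, beside 61.3 and 68.3 FPKM in siNC, and its log2 change of -0.26 did not pass (adjusted p = 0.39). Cdh2, N-cadherin, and Esrp2, an epithelial splicing regulator, had log2 changes of 0.33 and -0.48 (adjusted p = 0.28 and 0.16). Of 27 epithelial genes, 3 fell and none (0) rose, beside 2.46% and 3.32% of all genes tested. At an unadjusted p below 0.05, 5 were higher and 9 lower, beside 12.6% and 10.9% of all genes, and with short RNA genes left out 4 rose and 6 fell. The 3 were Cldn7, a tight junction claudin, Rab25, a GTPase of epithelial trafficking, and Elf3, an epithelial ETS factor, at log2 changes of -1.46, -1.35 and -0.91 beside -0.93, -1.15 and -0.59 in siNC. The median of the epithelial list was -0.12 in pair 1, -0.22 in pair 2 and 0.14 in siNC.

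Among matrix genes, 13 of 17 glycoproteins and 12 of 19 collagen genes were higher in both pairs, beside 34.8% of all genes tested. Of 17 matrix glycoproteins and proteoglycans, 9 rose and none (0) fell, with medians of 1.09 and 0.86 in the pairs and 0.74 in siNC, and with short RNA genes left out 12 rose and 3 fell. Of all genes tested, 3.32% rose and 2.46% fell, and 8.36% and 6.87% without short RNA genes, which is also the background of the collagen and integrin counts that follow. Fn1, fibronectin, rose from 392 to 1718 FPKM and from 236 to 1026 FPKM, which was 4.39-fold and 4.34-fold, beside 3.22-fold in siNC (204 to 659 FPKM). Has2, hyaluronan synthase, and Wisp1, another CCN protein, rose with log2 changes of 2.76 and 2.43, beside 2.51 and 2.05. Of 19 collagens and modifying enzymes 4 rose, and 10 with short RNA genes left out, among them Col5a3 (1.62 to 22.7 and 2.16 to 24.8 FPKM, beside 0.572 to 4.47 FPKM in siNC), and Col6a1 fell (9.01 to 0.595 and 29.4 to 2.88 FPKM, beside 3.21 to 1.27 FPKM). Col12a1, a fibril-associated collagen, was a gained rise, from 9.42 to 25.3 and from 1.97 to 6.09 FPKM beside 8.05 and 7.39 FPKM. Of 16 integrins and laminins 6 rose. Itga5, the fibronectin receptor subunit, rose 5.49-fold and 5.68-fold, beside 3.29-fold in siNC. The laminin chain genes Lama3 and Lamb3 rose from a lower level, with Lama3 at 6.63 to 18.3 and 16.0 to 38.1 FPKM beside 37.3 to 114 FPKM in siNC, and with log2 changes of 1.27 (Lama3) and 1.22 (Lamb3) beside 1.59 and 1.83.

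Of 11 mesenchymal markers 5 rose and 1 fell, beside 3.32% and 2.46% of all genes tested, with medians of 1.09 and 0.62 in the pairs and 0.13 in siNC. Besides Fn1, Itga5, Acta2 and Tagln, the matrix protein gene Sparc rose from 261 to 556 and from 298 to 546 FPKM, beside 121 to 174 FPKM in siNC. S100a4, a calcium-binding protein, fell from 1661 to 889 and from 3376 to 1802 FPKM, beside 1945 to 734 FPKM.

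Of 21 growth factors 10 rose and 1 fell, beside 3.32% and 2.46% of all genes tested. Their median was 0.96 in pair 1 and 0.73 in pair 2, beside 0.22 in siNC. Gene by gene, however, the median difference from siNC was 0.05, with 12 of 21 members above 0, beside 4696 of 9094 genes tested. Vegfa, an angiogenic factor, rose from 48.2 to 278 FPKM and from 73.3 to 305 FPKM, beside 86.3 to 284 FPKM in siNC. Its treated levels were alike with every siRNA. Vegfc, a lymphangiogenic factor, rose 5.34-fold and 5.60-fold beside 5.78-fold, and Jag1, a Notch ligand, 10.8-fold and 13.7-fold beside 10.6-fold. Pdgfa, Pdgfb and Pdgfc, ligands of the PDGF receptors, rose with log2 changes of 2.27, 1.66 and 1.26 beside 1.45, 1.19 and 1.07. Igfbp7, a secreted binding protein, rose from 317 to 697 FPKM and from 177 to 364 FPKM beside 78.5 to 316 FPKM, so that its untreated level was higher in both pairs than in siNC. Untreated untransfected EpRas cells held 340 and 333 FPKM of Igfbp7, so the untreated siNC library was the low one.

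**Figure D5:**
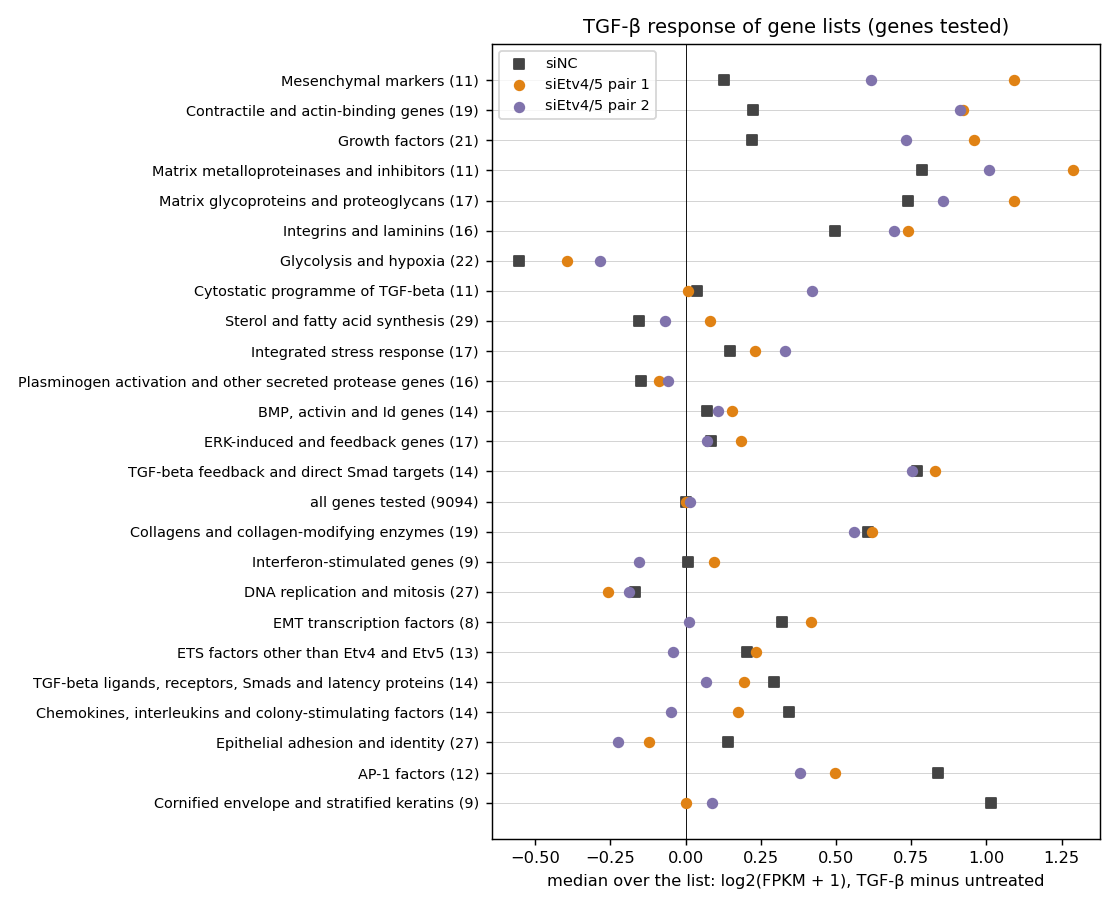
Median log2(FPKM + 1) difference between TGF-β and untreated cells over each gene list in siNC (grey squares), pair 1 (orange) and pair 2 (purple), with the number of genes tested in brackets and lists ordered by the distance of the pairs from siNC. The medians of both pairs lie above siNC for contractile genes, mesenchymal markers, growth factors and metalloproteinases. In that order, the signed change was above that of siNC in 17 of 19, 11 of 11, 12 of 21 and 6 of 11 members, beside 4696 of 9094 genes tested. The minimum of 5 FPKM was met only in knockdown libraries by Acta2 and Tagln, counted as contractile and mesenchymal, and by the contractile Actg2. Both medians lie below siNC for AP-1 factors and cornified envelope genes.

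Genes of the BMP and activin branch moved in both directions, with 4 of 14 rising and 3 falling, beside 3.32% and 2.46% of all genes tested. Inhba, the activin A subunit, rose 5.31-fold and 4.4-fold beside 5.00-fold in siNC, and Fst, its antagonist follistatin, fell from 17.4 to 5.76 and from 4.96 to 0.612 FPKM beside 11.3 to 1.52 FPKM. Id2, an inhibitor of basic helix-loop-helix factors, fell with a log2 change of -1.37 beside -2.22. Grem1, a BMP antagonist, rose from 2.27 to 11.6 and from 5.59 to 30.3 FPKM, beside 27.0 to 41.3 FPKM, that is from a lower start in the knockdown cells.

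Among 16 plasminogen activation and protease genes 4 rose and 4 fell, beside 3.32% and 2.46% of all genes tested, shares that are also the background of the hypoxia, chemokine and keratin lists. Plau, urokinase, rose with a log2 change of 0.96 beside 0.43 in siNC, and Klk8 and Klk10, kallikrein-related proteases, fell by 1.16 and 2.39 on the log2 scale, beside changes of -1.16 and -2.73 in siNC. Of 22 genes of glycolysis and hypoxia 1 rose (Vegfa) and 5 fell. The 5 were Bnip3, Car9, Adm, Egln3 and Ankrd37, which are targets of hypoxia-inducible factors, with log2 changes of -1.19 to -1.98 beside -0.60 to -1.60 in siNC. Of 14 chemokine, interleukin and colony-stimulating factor genes, Il11 rose, from 0.171 to 4.71 and from 0.304 to 5.44 FPKM beside 0.154 to 9.94 FPKM in siNC. The neutrophil chemokines Cxcl3 and Cxcl5 fell, with log2 changes of -1.39 and -2.05 beside -2.24 and -2.20. Of 9 cornified envelope and keratin genes 4 rose (Krt16, Krt17, Lce1f and Lce1g) and 1 fell (Ppl). Krt17, a stress keratin, rose from 0.454 to 4.17 and from 0.242 to 2.74 FPKM, beside 0.514 to 11.5 FPKM in siNC. Of 27 replication and mitosis genes 1 passed, a share below the 5.78% of all genes tested that passed in either direction. It was Rrm2, a ribonucleotide reductase subunit, at 98.6 to 633 and 72.2 to 203 FPKM beside 123 to 260 FPKM.

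Among 12 AP-1 factors, Junb rose 2.33-fold and 2.74-fold beside 2.58-fold in siNC, and Atf3 3.10-fold and 2.92-fold beside 1.88-fold. The median of that list was 0.50 and 0.38 in the pairs, beside 0.84 in siNC. Of 17 ERK-induced and feedback genes Spry1, an ERK antagonist, fell (36.1 to 14.6 and 19.1 to 10.5 FPKM, beside 9.76 to 7.94 FPKM), and of 13 other ETS factors Elf3 fell. The background of the AP-1, ERK and ETS calls is 3.32% rising and 2.46% falling among all genes tested. With short RNA genes left out, 5 AP-1 factors rose and 1 fell, 3 ERK genes rose and 2 fell, and 2 ETS factors rose and 1 fell. That background was then 8.36% and 6.87%. By limma no member (0) passed among 11 genes of the cytostatic programme, 9 interferon-stimulated genes, 29 genes of sterol and fatty acid synthesis and 17 genes of the integrated stress response. The share of all genes tested that passed in either direction was 5.78%, and these lists are too small to set 0 against it. In those lists 2, 2, 5 and 7 members had an unadjusted p below 0.05, beside 23.5% of all genes tested, and 1, 0, 3 and 5 passed when short RNA genes were left out, beside 15.2%. Cdkn1a, the p21 inhibitor of cyclin-dependent kinases, went from 224 to 177 FPKM in pair 1, from 137 to 186 FPKM in pair 2 and from 163 to 223 FPKM in siNC.

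Promoter sequences are shown for gained rises that carry a motif of contractile genes, for Acta2 and for Mmp13. Contractile genes are known to be driven by serum response factor at the CArG box (CC, a run of A or T bases, GG). That motif, and those of AP-1 (TGANTCA), ETS proteins (CCGGAA) and Smads (CAGACA), were searched on both strands in the 250 bases before each start of the RefSeq promoter table (GRCm38.p6), and no motif of these contains another. Among 44 starts of 32 gained rises, 4 held a CArG box (9.09%), against 1.05% of 95 starts of kept rises, 1.19% of 8407 starts of all genes tested and 1.47% of all 32851 starts. The ETS motif was in 15.9% of the gained and 7.37% of the kept starts, against 23.6% of the starts of genes tested. The Smad motif was in 25% and 25.3%, against 12.7%, and the AP-1 motif in 11.4% and 9.47%, against 4.52%. These shares are descriptions of letters, with no test. The 4 gained genes with a CArG box were Acta1, Fhl1, Fermt2 and Myl7. They are printed here because they carry the motif, with the motif in capitals, 5′ to 3′ on the strand of the gene. The Acta2 window follows. It holds no exact match and 2 stretches that are 1 base off the CArG pattern, and such stretches, counted after seeing the data, were in 13.2% of the starts of genes tested, 15.9% of the gained and 17.9% of the kept starts.
Acta1 (chr8:123894776-123895025, minus strand): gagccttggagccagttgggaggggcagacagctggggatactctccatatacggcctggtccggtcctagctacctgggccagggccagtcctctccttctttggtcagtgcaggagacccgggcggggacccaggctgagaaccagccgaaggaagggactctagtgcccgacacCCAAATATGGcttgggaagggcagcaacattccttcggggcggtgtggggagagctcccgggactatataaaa
Fhl1 (chrX:56779433-56779682, plus strand): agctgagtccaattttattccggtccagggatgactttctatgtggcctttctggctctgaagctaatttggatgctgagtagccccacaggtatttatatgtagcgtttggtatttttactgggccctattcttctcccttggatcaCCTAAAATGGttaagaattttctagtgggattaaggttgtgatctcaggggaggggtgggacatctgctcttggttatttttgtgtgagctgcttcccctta
Fermt2 (chr14:45530066-45530315, minus strand): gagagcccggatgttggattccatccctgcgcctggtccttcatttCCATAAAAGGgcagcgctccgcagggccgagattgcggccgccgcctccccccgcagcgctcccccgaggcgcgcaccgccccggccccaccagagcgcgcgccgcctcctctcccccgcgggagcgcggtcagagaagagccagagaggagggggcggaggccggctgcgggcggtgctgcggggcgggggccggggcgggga
Myl7 (chr11:5898783-5899032, minus strand): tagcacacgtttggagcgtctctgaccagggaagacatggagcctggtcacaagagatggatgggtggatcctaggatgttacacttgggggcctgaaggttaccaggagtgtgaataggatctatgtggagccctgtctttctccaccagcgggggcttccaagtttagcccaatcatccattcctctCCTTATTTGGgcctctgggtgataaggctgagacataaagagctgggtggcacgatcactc
Acta2 (chr19:34255374-34255623, minus strand): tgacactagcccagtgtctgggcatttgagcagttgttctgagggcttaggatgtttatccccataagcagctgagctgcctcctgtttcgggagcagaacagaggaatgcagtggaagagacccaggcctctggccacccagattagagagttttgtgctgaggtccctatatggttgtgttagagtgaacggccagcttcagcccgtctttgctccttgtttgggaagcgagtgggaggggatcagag
Fhl1, a LIM protein of muscle, rose from 12 to 39.1 FPKM in pair 1 and from 0.0997 to 2.69 FPKM in pair 2, beside 0.254 and 0.182 FPKM in siNC. Fermt2, the integrin activator kindlin-2, rose from 20.9 to 52.3 FPKM and from 14.1 to 37.2 FPKM, beside 13.2 to 19.4 FPKM. Myl7, an atrial myosin light chain, rose from 1.02 to 4.52 FPKM and from 0.545 to 3.36 FPKM, beside 4.16 to 5.37 FPKM. These 3 genes were named for the motif, after their values were seen.

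The window before Mmp13, a kept rise, held 1 AP-1 match (TGACTCA, 29 to 35 bases before the start), in capitals below.
Mmp13 (chr9:7272264-7272513, plus strand): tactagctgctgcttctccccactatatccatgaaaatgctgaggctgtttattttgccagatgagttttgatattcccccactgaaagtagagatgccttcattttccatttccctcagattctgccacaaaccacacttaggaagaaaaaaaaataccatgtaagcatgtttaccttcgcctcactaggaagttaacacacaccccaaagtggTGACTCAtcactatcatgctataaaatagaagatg
Its position and its levels above are given side by side, and no link between the motif and the response was tested.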

How the data were processed

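RNA was measured by directional poly(A) RNA sequencing on the Ion Proton, and the values used are the FPKM that the authors deposited, in a table of 6 siRNA libraries and a separate table of 8 untransfected libraries. Per the methods and the submitters' processing notes, reads were aligned to mm10 with TopHat2 2.0.11 and Bowtie2 2.2.2.2 and quantified with Cuffdiff of Cufflinks 2.2.0. The tables were normalised separately, so tests were run only within a table. Read counts were not used here, and relative depth was estimated from FPKM steps in 3295 of 11584 genes with a single start.

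Of 23284 genes, those with a maximum of at least 5 FPKM were tested, after 2 genes (siRNA table) and 3 genes (untransfected table) were left out for their quantification status. Log2(FPKM + 1) values were tested with limma 3.58.1 in R 4.3.3 and p-values were adjusted by Benjamini-Hochberg over all genes tested, with a threshold of 0.05. A fold change on this scale understates the change of low genes. The main test used the 4 knockdown libraries with the siRNA pair as a block. The block comes from the design, since both libraries of a pair received the same siRNAs. The difference between the pairs without TGF-β correlated with that with TGF-β at 0.232 across genes. The difference from siNC was an interaction term over all 6 libraries, and the untransfected fit used all 8 libraries. The tests were checked on simulated data. Per-library FPKM ratios carry no pseudocount.

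The libraries and gene lists were chosen with earlier results of these data known. Named genes were the 10 largest called rises and falls, the 5 largest lost and gained differences in each direction, the 5 largest differences past the interaction test, members of the lists that passed or describe a list, and Etv4, Etv5, Mmp9, Mmp13, Fn1, Cdh1, Cdh2 and Esrp2. MicroRNA, small nucleolar, ribosomal and predicted genes were not named by rank. Alternatives were other pseudocounts and filters, rescaling, no block, other folds, libraries left out and, chosen after seeing the data, short RNA genes left out. Promoter sequences came from RefSeq (GRCm38.p6) and the siRNA match from GENCODE (mm10). Some results are not reported here.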

Additional observations from a re-analysis of the deposited data

Results flagged for a closer look

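For 27 of 112 named genes the TGF-β response of the knockdown cells differed from that of siNC in the limma interaction test, 13 above and 14 below siNC. Over all genes, 0.297% passed that test, and 1.17% with short RNA genes left out. The named genes were partly chosen for large differences from siNC, so this count describes the choice and is read as no more. Each difference below is on the log2(FPKM + 1) scale and rests on 1 siNC library per condition.

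Expression of at least 5 FPKM was reached in both kinds of cells by 12 of the 27 genes, and all 12 passed only with short RNA genes left out. Above siNC were Glipr1 (2.59), Grem1 (1.5), a BMP antagonist, Col12a1 (1.40), Hist1h2bj (3.20) and Bc1 (7.39). Bc1, a short non-coding RNA gene (chr7:144914470-144914637), was not among the short RNA genes left out. It went from 51.3 to 0 FPKM in siNC and was above 0 in 1 knockdown library (9.28 FPKM). Hist1h2bj belongs to a family of near-identical histone genes, so its reads are uncertain. Below siNC were Gmppa (-2.90) and Rgs10 (-1.86), which rose in siNC, and Slpi (-2.49), Aldh3a1 (-2.46), Snhg9 (-2.19), Gsta4 (-2.06) and Cp (-1.66), which fell more in the knockdown cells.

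The other genes met that minimum in 1 kind of cells only, so their p-values carry no weight and the differences are values with no test. In 11 genes it was met in the knockdown cells only, namely Acta1 (3.55), Acta2 (3.33), Tagln (2.93), Actg2 (2.49), Edn1 (2.70), Adamts4 (1.82), Insl3 (-2.97), Inmt (-2.27), Mgp (-2.0), Col6a1 (-1.92) and Aqp1 (-1.72). The FPKM ratio of TGF-β to untreated cells for Aqp1 was 0.0907 in siNC, 0.0833 in pair 1 and 0.143 in pair 2, so its difference is not seen in the ratios. In 4 genes it was met in siNC only, namely Sprr1a (3.25), Klra33 (2.96), Pdyn (-3.63) and Mmp12 (-2.30).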

How the results depend on the processing

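The numbers of called genes depended on the fit. Directions under the alternatives were checked for the 112 named genes only, and none of the 99 called ones was reversed. All 526 called genes moved in the same direction in both pairs, so leaving out 1 pair could not reverse them. Of the named genes that were not called, Etv4 and Klra33 had the opposite sign in pair 1 alone (0.11 and -0.0048 on the log2 scale, against -0.21 and 0.30 over both pairs). Rises called in the knockdown cells (302) numbered 133 with a pseudocount of 0.1 FPKM, 174 after rescaling to a common median, 33 with no replicate block, 0 without the filter and 752 without short RNA genes, and falls (224) numbered 97, 136, 20, 0 and 618, and 144 with a pseudocount of 5 FPKM. Leaving out 1 knockdown library gave 1 to 13 rises and 5 to 18 falls, lowest for rises without either untreated library, and each such fit assumes that the lone sample varies like the others. Differences from siNC (27) numbered 0 without the filter, 105 without short RNA genes and 0 to 30 with 1 library left out, with 0 when either untreated knockdown library was missing. Changes of at least 2-fold in both pairs (210 rises, 155 falls) numbered 126 and 69 with a pseudocount of 5 FPKM, and 334 to 371 rises and 292 to 296 falls in single pairs. With that pseudocount 87 responses were kept, 95 lost and 57 gained (183, 167 and 104 before). With lower fold limits for presence and absence they were 467, 606 and 294, lost responses without the filter were 261, and gained ones with 1 pair were 272 to 280. Of the genes called in untransfected cells, 109 rises and 75 falls were 2-fold in both pairs. These were 25 and 12 when only the 4 EpRas libraries were fitted, which called fewer genes, and 36 falls with a pseudocount of 5 FPKM. Of 112 named genes 99 passed, and of these 74 were lost without the replicate block, 99 without the filter, 45 and 18 with pseudocounts of 0.1 and 5 FPKM, 26 after rescaling and 8 with a filter of 10 FPKM. The causes of these shifts were not tested. With 1 siNC library per condition, depth and culture differences behind a lost response cannot be told apart.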

Other observations

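Several gained rises outside the gene lists were expressed at 5 FPKM or more in all siRNA libraries, and 4 are described here, chosen after their values were seen. Ankrd1, a target of YAP and serum response factor, rose from 52.6 to 130 FPKM in pair 1 and from 26.7 to 68.9 FPKM in pair 2, beside 39.6 to 53.3 FPKM in siNC, and its log2 change in untransfected cells was 1.28 (limma adjusted p = 0.0088). Tmsb4x, the actin-sequestering thymosin β4, rose from 463 to 1209 FPKM and from 243 to 852 FPKM, beside 379 to 523 FPKM, with 1.02 in untransfected cells (adjusted p = 0.018). Ptgs2, cyclooxygenase-2, rose from 75.5 to 222 FPKM (pair 1) and from 45.8 to 104 FPKM (pair 2), all below the siNC library of the same treatment (220 and 303 FPKM). F3, tissue factor, rose from 13.7 to 42.7 FPKM and from 6.0 to 13.5 FPKM, beside 8.2 and 8.13 FPKM in siNC. The difference from siNC passed the interaction test for none (0) of these 4 genes in either limma fit, and all 4 had passed the paired test.

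Id3, an inhibitor of basic helix-loop-helix factors, was a lost fall. It went from 85.6 to 32.3 FPKM in siNC, from 62.8 to 68.4 FPKM in pair 1 and from 71.9 to 72.3 FPKM in pair 2. The difference was 1.44 on the log2 scale (limma interaction, adjusted p = 0.32 with all genes and 0.045 without short RNA genes).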
